A study of Mus musculus with 10 samples.

Results

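Newborn mouse cells that carried GFP under a Six2-GFP transgene were compared with the GFP-negative cells sorted at the same age. Of the 10 samples of the series, 4 enter the comparison, 2 arrays for each side, chosen by their titles. All 4 came from Six2-GFP transgenic mice on a mixed C57BL6J/ICR background at the P0 stage. The GFP-positive group (P0 Six2-GFP-positive) is taken as the nephron progenitors of the newborn, and the GFP-negative group holds whatever else passed through the sorter. The transgene is thus shared by both groups, and GFP status after flow sorting is the single labelled difference. The labels name the tissue as embryo and the source as P0 neonate, and they give neither the dissected organ, the promoter fragment of the transgene, the gate, nor whether animals were pooled or replicates came from separate litters. The p-values below therefore measure a spread between arrays of the same group, which may be technical. That spread is pooled over all 10 arrays of the series, which also hold E11.5 GFP-positive cells and 8-day and 19-day cultures of such cells. Both arrays of GFP-positive cells sorted at the E11.5 stage, also from Six2-GFP transgenic mice, are given beside some genes as a description with no test.

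Nephron progenitors, also called the cap mesenchyme, surround the tips of the branching ureteric bud, renew themselves until shortly after birth in the mouse and give rise to every epithelial segment of the nephron. Six2 is a homeodomain transcription factor that holds these cells in the uncommitted state. Wnt9b from the ureteric bud both maintains them and starts their conversion, and cells that begin to convert switch on Wnt4, form an aggregate and become epithelial. Stroma, vessels, blood cells, the collecting duct and finished nephron segments of the newborn kidney lie outside this population.

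A level is the log2 intensity of a gene's brightest probe relative to the 75th percentile of all 59305 non-control spots on that array, so that 0 is a fairly bright spot and each unit is a doubling. Differences are GFP-positive minus GFP-negative means on that scale, with n = 2 arrays a side throughout. Spots well above background made up 62.3% to 69.0% of each of the 4 arrays, the 75th percentile intensity ran from 244.6 to 296.9, and no spot was saturated. All 4 arrays were on slide 1, but both GFP-positive arrays lay in its first row and both GFP-negative arrays in its second, so slide row and group cannot be told apart. A gene was called when limma's moderated test, fitted over all 10 arrays, gave a Benjamini-Hochberg adjusted p of at most 0.05 over 26313 genes. Kidney identity was checked on marker genes. Six2, Pax2 and Wt1 were well above background on the GFP-positive arrays, and the podocyte gene Synpo, the thick limb gene Umod and the proximal tubule gene Slc34a1 on the GFP-negative arrays.

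The populations differed in 2197 genes, 8.35% of those tested, of which 1109 were higher in GFP-positive cells (4.21%) and 1088 were lower (4.13%). Counts in the gene lists below are to be read beside these shares. The falls were much deeper than the rises. The median fold was 1.90 among genes called higher and 10.5 among genes called lower, and a change of at least 10-fold was reached by 90 genes upward and by 567 downward. Among the genes called lower, 372 had no probe well above background on either GFP-positive array, whereas 82 genes called higher had none on the GFP-negative arrays. Folds given as "at least" for such genes are bounds that take no account of the spread between arrays. Among the falls ranked by bound, the confidence intervals of S100a9, Il2rg, Fbln5, Podxl and Gngt2 reached closer to no change than their bounds. Those bounds are not firm minimums. Replicates differed by a root mean square of 0.84 (GFP-positive) and 0.91 (GFP-negative) log2 units over all genes, against 1.38 to 1.43 between arrays of different groups. The groups did not overlap in 14717 genes (55.9%). Leaving out GFP-positive replicate 1 or 2 left 669 and 609 calls, and leaving out GFP-negative replicate 1 or 2 left 849 and 757. The size of the deep changes depended on the background correction. Among 268 called genes named in this account, normexp correction, which lifts dim signals, gave a fold smaller by more than 1.5 times for 159 and larger by as much for none, and the median size went from 3.88 to 2.22 log2 units. With a floor on dim values 67 were smaller by that much, and with the mean of a gene's probes 29. Six2 itself went from 7.59 to 5.88 under normexp correction and Perp from -7.30 to -5.00. For 25 of the 268 the quoted probe was well above background on only 1 of the 2 arrays of a group, so that their folds rest partly on a signal not above background and are neither bounds nor precise. These are Aldh1a1, Bmp3, Cdh1, Cdh22, Cdh5, Chst3, Chst8, Cldn19, Cldn2, Col9a1, Ctss, Emx2, Erbb3, Fgf9, Has2, Igfbp3, Itga1, Keg1, Lgr5, Peg10, Perp, Six2, Slc40a1, Snap91 and Tyrobp. Leaving out 1 array moved the fold over a range of more than 1.5 times for 133 of the 268. The count of rises also depended on the scaling of the arrays. Quantile normalization called 593 genes higher and 1106 lower, so that rises made up 34.9% of calls rather than 50.5%.

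The tilt lay in the bright genes. Above a mean level of 5, 33.2% of 1246 genes were called higher and 1.69% lower, with a median difference of 0.31. After quantile normalization the same genes gave 81 calls upward and 93 downward, with a median of 0.02. Below a mean level of -2.5, 1.33% of 7971 genes were called higher and 4.70% lower. A call lost under quantile normalization is therefore stated beside each named gene it befell. Six2 and Cited1 kept their calls under both scalings.

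**Figure D1:**
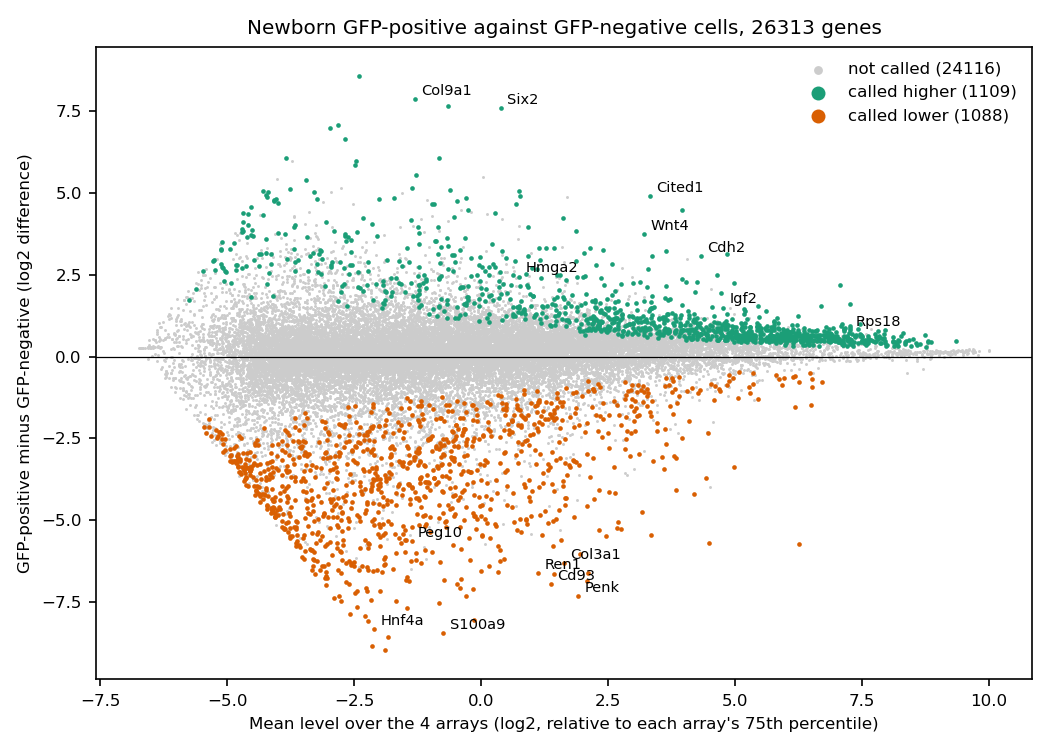
Each point is 1 of 26313 genes, with its mean level over the 4 newborn arrays (log2, relative to each array's 75th percentile) on the horizontal axis and the log2 difference, GFP-positive minus GFP-negative, on the vertical axis. Green points are the 1109 genes called higher and orange points the 1088 called lower, and at high levels the green points form a band of small rises while deep falls are spread over low and middle levels.

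Transcription factors of the progenitor state were higher in the GFP-positive cells as a group. Of 28 measured members, 16 rose, none fell, and all 28 differences were above 0, with a median of 1.58 against 0.10 over all genes. The list was written with earlier results of these data known, and Six2 expression is what the sort itself aimed at.

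Six2 itself stood at 4.27 and 4.11 on the GFP-positive arrays and at -2.26 and -4.55 on the GFP-negative arrays, a difference of 7.59 (SE 0.71, adjusted p = 0.00176). The second GFP-negative array was not well above background for that probe. The E11.5 levels of Six2 were 4.70 and 4.82, close to those of the newborn GFP-positive cells. Cited1, a transcriptional co-regulator that marks the least committed part of the cap, stood at 6.03 and 5.53 against 1.33 and 0.45, a 29.6-fold rise (adjusted p = 0.00278). Cited1 was lower at E11.5, at 3.00 and 3.64, than on either newborn GFP-positive array. Eya4, of the Eya family of phosphatases and co-activators that partner Six2 and its relatives, stood at 1.85 and 2.13 against -3.14 and -1.84 and rose 22.3-fold. Osr1, which marks the intermediate mesoderm before the cap forms, stood at 1.13 and 0.64 against -2.76 and -2.16 (difference 3.35, SE 0.72). No array of one group overlapped the other in these 4 genes, which holds for all 2197 called genes and for 55.9% of all genes tested. The Osr1 call was lost under normexp background correction and without the intensity trend.

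Pax2 and Wt1 also rose, but from a high level in the GFP-negative cells, where other kidney cells use both genes. Pax2, a paired-box factor of the cap and the ureteric bud, stood at 5.20 and 5.20 against 3.40 and 3.05 and rose 3.93-fold (adjusted p = 0.00319). Wt1, which podocytes keep after the progenitor stage, stood at 5.76 and 5.90 against 4.31 and 4.78 and rose 2.44-fold (adjusted p = 0.0192). Mycn, a Myc family growth regulator, rose 3.82-fold from 4.003 and 3.54 to 5.57 and 5.84. Uncx rose by 1.94 log2 units, the ETS factor Etv4 by 2.25, Sox11 by 1.44, Foxc1 by 1.40 and Sox4 by 0.81. The Sox4 call was lost under quantile normalization. Sall4, a zinc finger factor outside the list, rose 6.42-fold.

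Several familiar progenitor factors did not reach the threshold. Sall1, a zinc finger factor required in the cap, stood at 4.12 and 4.26 against 1.58 and 1.91, with no overlap but an adjusted p of 0.09. Meox1 stood at 1.94 and 1.31 against 0.55 and 0.04 (adjusted p = 0.126) and was brighter at E11.5, at 3.70 and 3.98. Eya2 stood at 3.31 and 3.25 against -0.20 and 0.05, with no overlap but an adjusted p of 0.35. The Eya2 difference was 3.36, and it ran from 3.23 to 3.48 when single arrays were left out. The fit pools the spread over all arrays of the series, E11.5 and cultures included. The missing Eya2 call therefore does not mean that the newborn arrays disagreed. Hoxd11 and Cited2 had differences of 1.28 and 0.41. Eya1, whose protein acts with Six2, gave levels of 9.48 and 9.42 against 9.24 and 9.40 on its single probe, among the brightest levels in the data in both groups. The Eya1 difference of 0.13 (SE 0.11) became -0.02 after quantile normalization, so that it has no settled sign.

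Secreted and surface proteins of the progenitors had 20 measured members, of which 6 rose and 1 fell, with a median difference of 1.69. Fgf20, an FGF ligand made by the cap that keeps progenitors alive, stood at 0.95 and 0.07 on the GFP-positive arrays and was not well above background on either GFP-negative array, which makes it at least 33.2-fold higher (adjusted p = 0.0149). Spock2, a secreted proteoglycan, stood at 6.30 and 6.11 against 2.51 and 0.96 and rose 22.1-fold. Rspo1, a Wnt-enhancing R-spondin, stood at 3.73 and 3.74 against -0.81 and -0.20 and rose 18.9-fold. The signalling adaptor Traf1 rose 15.6-fold, the Hedgehog co-receptor Gas1 4.81-fold, and the N-cadherin gene Cdh2 8.398-fold from 2.57 and 3.04 to 5.78 and 5.97. Fgf9, the partner ligand of Fgf20 in the cap, went the other way. It stood at -4.19 and -6.45 against -2.49 and -1.60, a 9.66-fold fall with an adjusted p of 0.037 that was lost under quantile normalization, the replicate block, the slide block and the fits to slide 1 or to the 4 arrays alone. The second GFP-positive array was not well above background for Fgf9, and leaving out single arrays gave differences from -4.40 to -2.14.

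Gdnf, the ligand by which the cap drives ureteric branching, stood at -0.28 and 0.09 against -2.16 and -4.03. Its groups did not overlap, and the difference of 3.00 carried an SE of 1.19 and an adjusted p of 0.198. The integrin gene Itga8 stood at 2.64 and 3.09 against 1.53 and 1.98 (adjusted p = 0.607), and Bmp7, a survival factor of the cap, at 0.01 and -0.22 against -1.12 and -0.35 (adjusted p = 0.421). Tmem100 and Crym had large differences, 5.14 and 4.89, with standard errors of 1.81 and 2.06, and neither was called. Ncam1 and Cdh11, both cell adhesion genes of the cap, differed by 1.02 and 0.64 and did not pass.

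**Figure D2:**
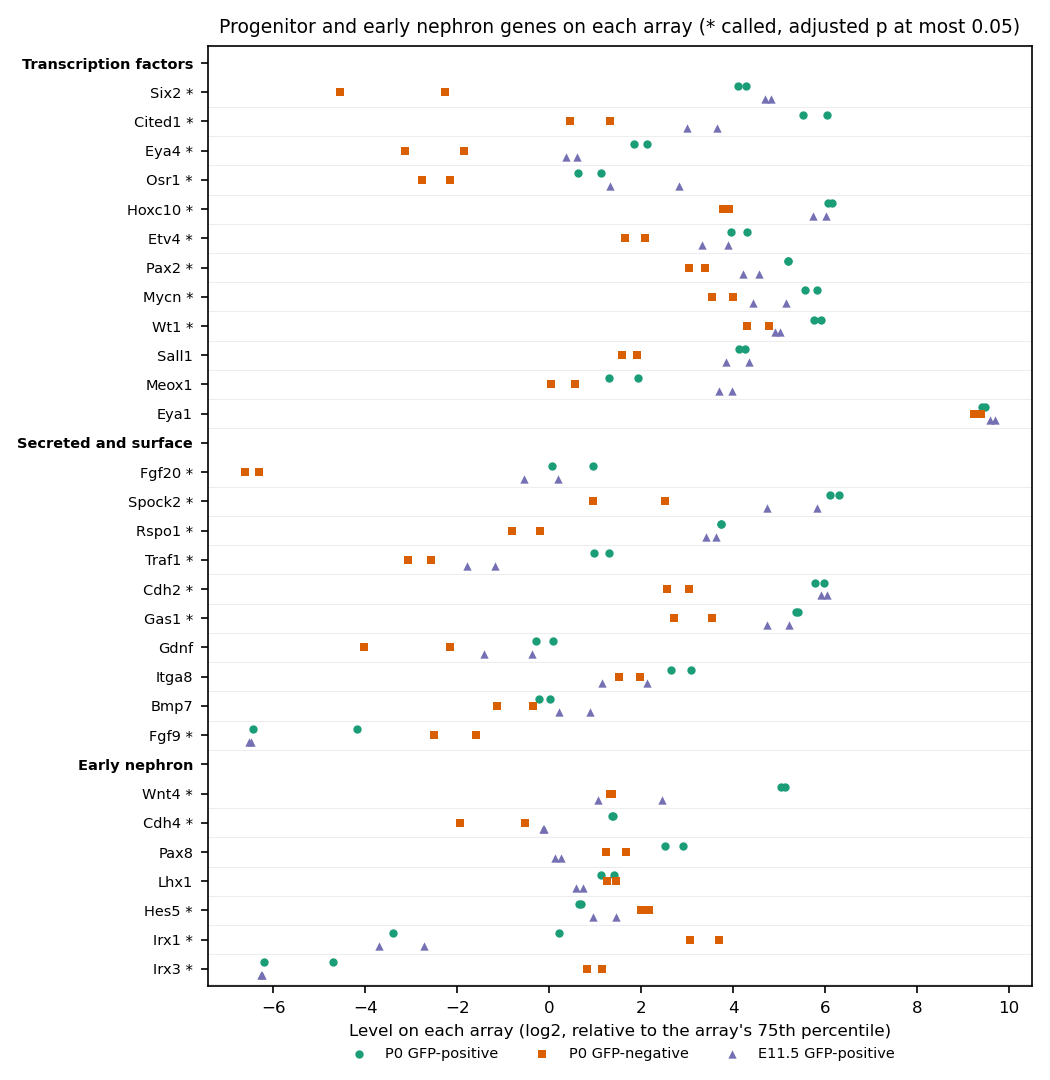
Log2 levels on each array for progenitor and early nephron genes, with green circles for newborn GFP-positive cells, orange squares for newborn GFP-negative cells and purple triangles for E11.5 GFP-positive cells, 2 arrays each. Asterisks mark genes called between the newborn groups. Six2 and Fgf20 show the widest gaps upward, Irx3 and Irx1 the widest downward, and the symbols of Eya1 and Lhx1 lie together.

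Hox genes give cells their position along the body axis, and those of the posterior groups act in kidney formation. Of 13 posterior Hox genes measured, 5 rose and none fell, and without single arrays 1 to 3 rose. Hoxd12 stood at 0.80 and 0.94 against -2.97 and -2.35, an 11.54-fold rise, and Hoxc10 at 6.15 and 6.06 against 3.92 and 3.77, a 4.78-fold rise. Hoxa11 rose 3.15-fold, Hoxd10 2.92-fold and Hoxa10 2.05-fold. Of 22 anterior and central Hox genes, 4 rose and 1 fell. Among the rises 3 lay in the HoxC cluster, as Hoxc10 does. Hoxc4 stood at 5.91 and 5.86 against 3.43 and 3.36, Hoxc6 at 3.25 and 3.21 against 0.97 and 0.62 and Hoxc5 at 0.76 and 0.87 against -1.54 and -1.10, with differences of 2.49, 2.43 and 2.14. Hoxa6 rose by 1.91, while Hoxd8 stood at -0.17 and 0.20 against 1.88 and 2.25 and fell 4.14-fold.

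Genes of the first steps out of the progenitor state split in direction. Of 25 measured genes of the pretubular aggregate and renal vesicle, 2 rose and 5 fell, and the median was -0.97. Wnt4, which drives the conversion to epithelium, was high in the GFP-positive cells, at 5.04 and 5.12 against 1.31 and 1.37, a 13.4-fold rise (SE 0.59, adjusted p = 0.0107). Its E11.5 levels were 1.07 and 2.45, below both newborn GFP-positive arrays. The R-cadherin gene Cdh4 rose 6.13-fold. Irx3 and Irx1, Iroquois homeodomain factors of the middle nephron, fell, Irx3 at least 38.3-fold and Irx1 31.1-fold. Emx2 fell 22.7-fold and the Notch target Hes5 2.65-fold. The Emx2 difference ranged from -6.25 to -2.75 when single arrays were left out, and its call was lost under 5 of 12 alternative settings with all 4 arrays. Lhx1, a LIM homeodomain factor of the renal vesicle, stood at 1.40 and 1.13 against 1.25 and 1.47. Its groups overlapped and its difference of -0.09 changed sign when single arrays were left out. Pax8 stood at 2.51 and 2.91 against 1.23 and 1.67 (adjusted p = 0.613) and Jag1 differed by -1.02, neither being called.

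Wnt signalling components were divided by role. Among 16 ligands and R-spondins, Rspo1 and Wnt4 rose, and Wnt9b and Wnt7b, which the ureteric bud and collecting duct make, fell. Wnt9b stood at -3.03 and -2.89 against 1.35 and 0.48, a 14.6-fold fall, and Wnt7b fell 9.33-fold. Wnt5a differed by -0.15 and was not called. Among 30 receptors and antagonists 4 rose and 4 fell. Fzd2, a Frizzled receptor, stood at 4.85 and 4.97 against 1.99 and 1.70 and rose 8.35-fold (SE 0.15, adjusted p = 0.000454), whereas Fzd1 fell 2.76-fold. The R-spondin receptor Lgr6 rose 16.4-fold, and its relatives Lgr5 and Lgr4 fell 17.2-fold and 3.00-fold. Cxxc4, an inhibitor of Dishevelled, stood at 1.96 and 1.88 against -2.98 and -3.33 and rose 33.7-fold, and its relative Cxxc5 rose 3.09-fold. Sfrp1, a secreted Wnt antagonist, fell 23.9-fold from 2.00 and 1.98 to -2.76 and -2.43. Of 15 targets and nuclear factors, Tafa5, Tcf7l1 and Tcf7l2 rose by 2.80, 1.88 and 0.70, the last lost under quantile normalization, while Lgr5 and Rnf43 fell. Rnf43, a ubiquitin ligase that removes Frizzled receptors, was at least 2.75-fold lower.

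In the FGF pathway, 18 ligands and receptors gave 2 rises, Fgf20 and the decoy receptor Fgfrl1 (2.61-fold), and 2 falls, Fgf9 and Fgfr4 (4.90-fold). Each direction held 11.1% of this list, beside 4.21% higher and 4.13% lower over all genes. Feedback genes induced by FGF and ERK signalling had 16 members, of which 3 rose. Il17rd, an FGF receptor inhibitor, rose 4.80-fold, Etv4 4.76-fold from 1.65 and 2.09 to 4.29 and 3.95, and the phosphatase gene Dusp4 4.09-fold. Dusp14 fell 9.10-fold, and the more widely used reporters of the pathway, Dusp6 and Etv5, differed by -0.42 and 0.80 and were not called, Etv5 at an adjusted p of 0.0512.

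Ligands of the BMP and TGF-beta family numbered 19, of which 1 rose and 1 fell. These are 5.26% each way, close to the 4.21% higher and 4.13% lower of all genes. Inha, an inhibin subunit, was at least 2.11-fold higher, a call that was lost under quantile normalization, and Bmp3 fell 22.1-fold. Of 28 receptors and modulators 3 rose and 5 fell. Bmper, a secreted BMP-binding protein, stood at 3.03 and 3.39 against -1.20 and -2.18 and rose 29.9-fold, Chrdl1 rose 3.96-fold and Ltbp1 2.44-fold, the last lost under quantile normalization. Sostdc1, another secreted BMP antagonist, stood at -2.49 and -0.94 against 3.39 and 3.11 and fell 31.3-fold. The co-receptors Tgfbr3 and Eng fell 6.12-fold and 4.02-fold. Smad5 and the BMP target Id3 were the 2 members called among 17 Smads and Id genes, with rises of 1.19 and 1.17.

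Retinoic acid is made from vitamin A in successive steps and is degraded by Cyp26 enzymes. Of 18 genes of its synthesis, breakdown and binding, 5 rose and 3 fell. Rdh10, which makes retinaldehyde, stood at 3.92 and 4.14 against 1.09 and 0.43 and rose 9.64-fold (SE 0.29, adjusted p = 0.00143). Aldh1a2, which turns retinaldehyde into the acid, stood at 5.14 and 5.12 against 2.87 and 2.68 and rose 5.13-fold. The vitamin A importer Stra6 rose 5.48-fold, a call lost under quantile normalization, and the binding protein gene Crabp2 rose 2.16-fold. The other 2 retinaldehyde dehydrogenase genes fell. Aldh1a1 stood at -4.71 and -3.15 against 0.15 and -0.28 and Aldh1a3 at 0.77 and 0.21 against 2.504 and 1.98, falls of 14.6-fold and 3.38-fold. The Aldh1a3 call was lost under 6 of 13 alternative settings with all 4 arrays and in all 4 fits that left out 1 array. The degrading enzyme gene Cyp26b1 fell 9.93-fold.

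Notch pathway genes had 22 members, 2 higher and 4 lower, or 9.09% and 18.2% beside 4.21% and 4.13% of all genes. Notch2, the receptor that patterns the proximal nephron, stood at 6.16 and 6.42 against 5.13 and 5.35 and rose 2.07-fold, a call lost under quantile normalization, and the Notch target Hey1 rose 3.63-fold. Notch3 and Notch4, receptors used in mural and endothelial cells, fell 3.80-fold and 5.26-fold, and the glycosyltransferase gene Mfng 7.92-fold. In the Hedgehog pathway, 2 of 14 members rose, Gas1 and Gli3 (by 1.39). Shh, Dhh and Gli2 were not well above background on the GFP-positive arrays and were at least 9.65-fold, 11.3-fold and 5.76-fold lower. The Gdnf receptor Ret, made by ureteric tips, was at least 2.62-fold lower, a call that was lost under quantile normalization, normexp correction and 7 other settings, and Slit2 rose 3.46-fold. Guidance genes mostly fell where they were called. Of 29 semaphorins, plexins and neuropilins, 7 fell, among them Sema3a (20.8-fold) and Nrp1 (4.36-fold), and Sema4g and Sema3f rose by 1.54 and 1.51. These are 24.1% lower and 6.9% higher, beside 4.13% and 4.21% of all genes. Without single arrays the 7 falls became 1 to 2 and the 2 rises 0, and the Sema3f call was also lost under quantile normalization and 7 other settings with all 4 arrays. The ephrin receptor gene Epha3 was the 1 member called among 19 ephrins and Eph receptors, at least 26.0-fold lower. That is 5.26% of the list, close to the 4.13% of all genes called lower.

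Members of the IGF axis and of the imprinted genes changed in both directions, with more falls than rises in each list. Igf2, the fetal growth factor, stood at 5.49 and 5.56 against 4.25 and 3.81, a 2.82-fold rise, and H19, the noncoding RNA gene beside it that is expressed from the other parental allele, stood at 7.95 and 8.20 against 6.60 and 6.33, a 3.05-fold rise seen with all 7 of its probes above background. The probe of H19 with the highest mean is quoted. Igf1 stood at -2.52 and -3.23 against 1.81 and 1.69 and fell 24.8-fold, with the same sign in all 5 of its probes. The binding protein genes Igfbp3 and Igfbp7 fell 22.96-fold and 6.95-fold, and Igfbp1 at least 8.74-fold. Of 22 imprinted genes, 2 rose, which were Igf2 and H19, and 4 fell. Peg10 stood at -3.87 and -4.49 against 1.43 and 1.48, a 49.7-fold fall, although it was bright in E11.5 GFP-positive cells, at 2.41 and 2.32. Plagl1, a zinc finger regulator of other imprinted genes, fell 10.4-fold from 6.73 and 6.62 to 3.67 and 2.93, Sgce 4.03-fold, and the cell cycle inhibitor gene Cdkn1c 6.33-fold. Cdkn1c likewise stood higher at E11.5, at 3.08 and 2.40, than on the newborn GFP-positive arrays, at -0.58 and -0.46. Mest differed by 0.51 and was not called.

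Genes of fetal timing were also tested. Hmga2, a chromatin protein gene shut off in most adult tissues, stood at 2.14 and 1.82 against -0.66 and -0.27, a 5.43-fold rise, and was brighter at E11.5, at 4.87 and 4.78. The RNA-binding protein gene Msi1 rose 4.56-fold. Msi2 rose by 1.01 on its brightest probe, but the mean of its probes gave -0.80, and the call was lost under quantile normalization. These 3 were the rises among 12 members, and none fell.

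The largest rises outside the progenitor lists were of mixed kinds. Col9a1 had the largest rise among the genes of the lists, with levels of 2.64 and 2.61 against -3.64 and -6.83, a 231-fold rise (SE 0.98, adjusted p = 0.00468). It codes for a fibril-associated collagen of cartilage. The second GFP-negative array was not well above background for that probe, and the difference of 7.85 became 4.70 with normexp correction and 3.97 with the mean of its probes. Col2a1, the main cartilage collagen, stood at 3.33 and 3.22 against -1.83 and -1.75, a 33.4-fold rise, and Matn1, a cartilage matrix protein gene, was at least 13.6-fold higher. Both collagens were bright in E11.5 GFP-positive cells too, at 1.4996 and 1.69 and 2.42 and 2.71. Sox9, the regulator of cartilage that kidney epithelia also use, stood at 0.32 and -0.20 against 1.57 and 0.78 and was not called, and Hapln1, the cartilage link protein gene, was at least 7.29-fold lower. Over the whole list of 20 cartilage and skeletal muscle markers 4 rose and 3 fell, and the summed level was 26.9 and 22.7 on the GFP-positive arrays against 13.5 and 10.2 on the GFP-negative arrays, in multiples of each array's 75th percentile. The part of other cell types in these rises was not tested.

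Some muscle genes also rose, while others fell. Mrln, which codes for the muscle micropeptide myoregulin, stood at 1.42 and 1.01 against -3.70 and -4.19 and rose 35.8-fold. Actn3, the fast muscle actinin gene, was at least 10.02-fold higher, and the troponin genes Tnnt3 and Tnni1 rose 6.70-fold and 6.93-fold. Actn3, Tnnt3 and Tnni1 were singled out after their values were seen. Myod1, the muscle master regulator, stood at 1.52 and 1.33 against 1.47 and 1.47, with overlapping groups, and Acta1 and Tnnt1 fell 9.74-fold and 6.06-fold.

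By the ranking rule, the largest rise among genes whose probe was well above background on all 4 arrays was Amph, which codes for amphiphysin of the endocytic machinery. It stood at 2.01 and 2.38 against -3.98 and -3.74, a 66.3-fold rise. Next to Mrln, Cxxc4, Col2a1, Bmper and Cited1 came Ism1, a secreted protein gene (28.7-fold), Kazald1 (25.2-fold), the neurotensin receptor gene Ntsr1 (25.05-fold), Tmem35a (20.7-fold), C1ql4 (19.3-fold) and Lrrn1 (18.1-fold). The 2 probes of Ntsr1 disagreed in size, with differences of 4.65 on the brighter, which is quoted, and 1.35 on the other. Among genes not well above background in the GFP-negative cells, Nell1 had the highest bound the rule ranked, 201-fold. The Nell1 bound is almost the measured difference of 7.65, whose 95% interval ran from 4.90 to 10.40, so it is not a firm minimum. Nell1 stood at 3.12 and 3.24 on the GFP-positive arrays and at 2.29 and 2.83 at E11.5. It codes for a secreted EGF-like glycoprotein. AU015791, Vat1l and Saa2 were at least 38.5-fold, 36.1-fold and 31.7-fold higher, and Pkp1, Rbm20 and Aunip at least 13.9-fold, 13.4-fold and 11.7-fold. The 95% intervals of AU015791, Saa2, Pkp1, Rbm20 and Aunip reached below their bounds, and that of Vat1l did not. For Saa2 the interval began at 3.16 log2 units against a bound of 4.99. C2cd4c was ranked with a bound of 12.6-fold, which equals its measured difference of 3.65 (95% interval 1.69 to 5.62) and is no minimum. The C2cd4c call was lost under 6 of 12 alternative settings with all 4 arrays and in 3 of the 4 fits without 1 array, where its difference ran from 2.26 to 5.04. Kazald1 stood at -0.53 and -4.09 and AU015791 at -5.96 and -5.47 on the E11.5 arrays, below their newborn GFP-positive levels of 3.15 and 2.90 and 1.96 and -0.51. Trpm6, a magnesium channel gene of the distal convoluted tubule, was at least 6.88-fold higher as the 1 rise among 15 distal tubule markers. Its GFP-positive levels were -1.80 and -1.73, and it was near the bottom of the scale at E11.5, at -5.92 and -6.49.

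**Figure D3:**
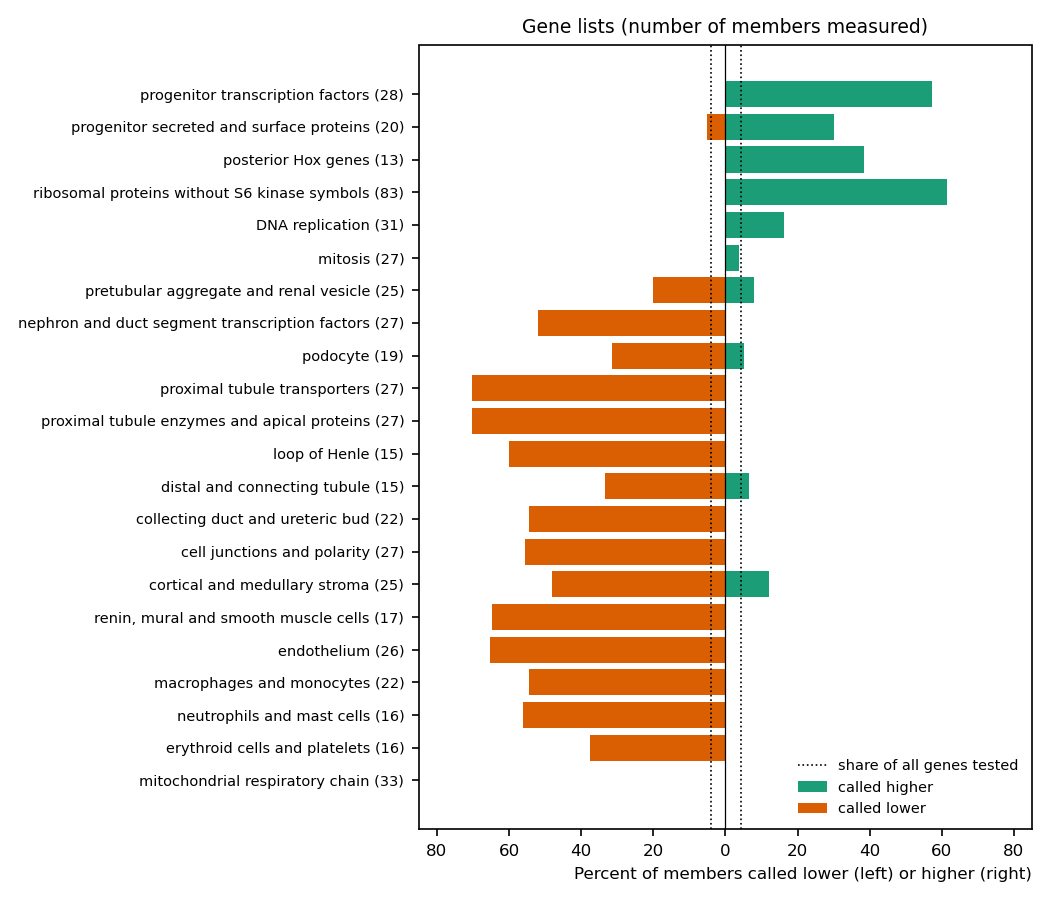
Horizontal bars give the percent of measured members of each gene list called lower (orange, to the left) or higher (green, to the right) in newborn GFP-positive cells, with the number measured in parentheses. Dotted lines mark the share of all genes tested, 4.13% lower and 4.21% higher. Progenitor and ribosomal protein lists reach to the right, and segment, vessel and blood cell lists to the left.

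Cytoplasmic ribosomal proteins formed the list with the most rises, but by small amounts. Of 83 measured genes, 51 were called higher and none lower, with a median difference of 0.49, or 1.40-fold. Rps18 stood at 7.66 and 7.67 against 6.81 and 6.92 (difference 0.81, SE 0.10) and Rpl34 at 7.04 and 7.26 against 6.37 and 6.35 (0.79, SE 0.13). Rps2 and Rps26 rose by 0.83 and 0.81. After quantile normalization Rps18 and Rpl34 differed by 0.402 and 0.399 and were not called (adjusted p = 0.110 and 0.080), while Rps2 and Rps26 differed by 0.61 and 0.51 and were. These genes are among the brightest on the arrays, and the shift of bright genes moves with this result. Of 70 ribosomal protein genes above a mean level of 5, 71.4% were called higher, against 31.0% of the 1176 other genes at such levels, with medians of 0.49 and 0.29.

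The call was not stable. After quantile normalization 11 of 83 ribosomal protein genes were called higher, with a median of 0.16 against 0.01 for the other bright genes, and without the intensity trend 1 was called. When GFP-positive replicate 1 or 2 was left out 10 and 8 members of the symbol family were called, and when GFP-negative replicate 1 or 2 was left out 22 and 12. No setting called a member lower. Mitochondrial ribosomal proteins, which bear similar symbols but are made for another ribosome, gave 1 call, Mrpl20, among 78, with a median of 0.25.

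**Figure D4:**
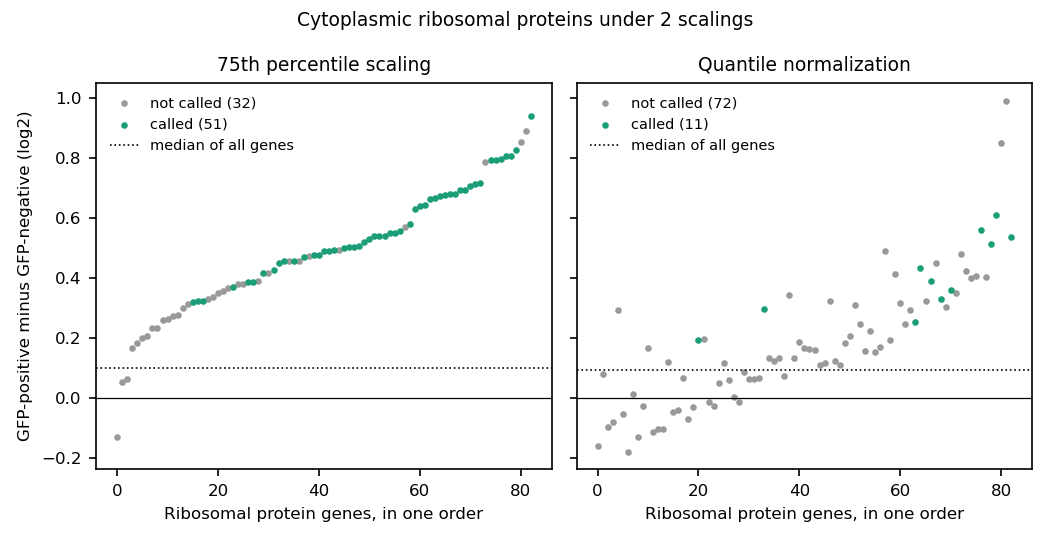
Log2 differences of 83 cytoplasmic ribosomal protein genes, in the same order in both panels, with the 75th percentile scaling on the left and quantile normalization on the right. Green points are called, 51 on the left and 11 on the right, and the dotted line is the median of all genes, 0.10 on the left and 0.09 on the right.

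Messages for ribosomal proteins are known for a run of pyrimidines at their very start, through which their translation follows growth signals. The start windows of 4 genes called higher under the main scaling are shown because the members lean the same way, as GRCm38.p6 sequence from RefSeq, 15 bases before and 15 from the start on the gene's strand. Capitals mark the unbroken run of C or T that covers the start.
Rps18 (chr17:33955651-33955680, minus strand): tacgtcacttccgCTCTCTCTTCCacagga
Rpl34 (chr3:130730323-130730352, minus strand): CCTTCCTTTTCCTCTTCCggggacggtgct
Rpl7a (chr2:26910792-26910821, plus strand): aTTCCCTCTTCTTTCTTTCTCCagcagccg
Rpl14 (chr9:120571502-120571531, plus strand): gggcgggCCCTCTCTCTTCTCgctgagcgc
Rpl7a rose by 0.64 and Rpl14 by 0.70. After quantile normalization the differences were 0.32 and 0.36, with adjusted p = 0.128 and 0.0351, so that of the 4 genes shown Rpl14 alone was called under both scalings. Runs of at least 6 such bases covered the start in 20 of 73 windows of 62 matched ribosomal protein genes (27.4%), in 2 of 75 windows of mitochondrial ribosomal proteins (2.67%) and in 6.20% of 21263 windows of all coding genes. The search read one strand, and it was chosen after the values of these genes were seen.

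Genes of the cell cycle leaned upward with few calls. Of 31 DNA replication genes 5 rose and none fell, and 30 differences were above 0, with a median of 0.73. Mcm7, a subunit of the replicative helicase, stood at 5.79 and 6.01 against 4.50 and 4.41 and rose 2.72-fold (adjusted p = 0.00287). Mcm4 stood at 5.84 and 5.78 against 4.62 and 4.71 and rose 2.20-fold. Mcm10, Prim1 and Mcm6 rose by 2.40, 1.53 and 0.98, the last lost under quantile normalization, and Pcna differed by 0.79 with no call. Of 27 mitosis genes Mki67 alone was called, by 1.19, and not under quantile normalization, while Birc5 differed by 0.65. The 1 rise is 3.7% of the mitosis list, close to the 4.21% of all genes. Among 15 Cdk inhibitors, D cyclins and their kinases, Cdk4 rose by 0.91, again not under quantile normalization, and Cdkn1c fell. Bcl2, which protects against cell death, stood at 4.85 and 4.58 against 2.43 and 2.68 and rose 4.48-fold. The p53 target Perp, a desmosome protein gene of epithelia, stood at -3.92 and -3.96 against 3.55 and 3.17 and fell 158-fold.

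Metabolic lists stayed near the background. None of 33 respiratory chain genes was called, 1 of 25 genes of fatty acid oxidation and peroxisomes fell (Acadl, 4.72-fold), and 2 of 21 cholesterol synthesis genes fell, among them Hmgcs1 by 1.00 log2 units. Of 21 glycolysis genes Hk1 rose by 0.44, lost under quantile normalization, and Aldoa and Tpi1 fell by 0.93 and 0.75. Of 26 Polycomb and DNA methylation genes, Cbx2 rose 3.53-fold, and of 23 immediate early and heat shock genes, which can respond to dissociation, Klf6 fell 3.18-fold and none rose.

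Markers of finished nephron segments were lower in the GFP-positive cells, with the highest share of falls in the proximal tubule lists. In these sorted populations, which were measured in bulk, fewer cells of a type and less RNA per cell cannot be told apart. Of 27 transcription factors of nephron and duct segments, 14 fell and none rose, with a median of -2.38. Hnf4a, the regulator of proximal tubule maturation, was not well above background on either GFP-positive array, at -6.66 and -5.85, and stood at 2.13 and 1.98 on the GFP-negative arrays, at least 80.4-fold lower (adjusted p = 0.000454). Ppargc1a, a co-activator of mitochondrial biogenesis, fell 29.3-fold, Grhl2 and Tfap2b 27.1-fold and 20.1-fold, and the bile acid receptor gene Nr1h4 at least 9.95-fold.

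Proximal tubule transporters had 27 measured members, of which 19 fell and none rose (median -4.05). Proximal tubule enzymes and apical proteins had the same counts (27 and 19, median -3.61). Slc34a1, the sodium phosphate cotransporter gene, stood at 0.28 and -2.71 against 4.23 and 4.53 and fell 48.2-fold. Slc22a6, an organic anion transporter gene, stood at -1.22 and -2.09 against 3.20 and 3.72 and fell 34.7-fold. The endocytic receptor gene Cubn fell 56.9-fold, Slc27a2 and Slc47a1 40.9-fold and 36.9-fold, and Slc13a3 at least 31.3-fold. Among the enzymes and apical proteins, Spink1 stood at -1.06 and -2.69 against 4.91 and 4.59 (99.0-fold), and Keg1 and Dpp4 fell 46.2-fold and 39.6-fold. The summed level of the transporters was 9.86 and 8.11 on the GFP-positive arrays against 116.6 and 117.2 on the GFP-negative arrays, and 7.24 and 6.98 on the E11.5 arrays. Leaving out single arrays gave 6 to 9 falls among the transporters and 8 to 11 among the enzymes and apical proteins.

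Other segments followed. Of 15 loop of Henle markers, 9 fell and none rose (median -3.45). Umod, the uromodulin gene, stood at -0.44 and -0.80 against 4.03 and 4.55, a 30.03-fold fall, the potassium channel gene Kcnj1 was at least 43.9-fold lower, and the claudin genes Cldn10 and Cldn19 fell 33.1-fold and 17.4-fold. Of 15 distal and connecting tubule markers 5 fell, among them Fxyd2, a sodium pump regulator, at 2.38 and 1.82 against 6.24 and 6.35, the calcium binder S100g (5.64-fold), and Kl, the klotho gene, at least 4.31-fold. Collecting duct and ureteric bud had 22 measured markers, 12 lower and none higher (median -3.06). The water channel gene Aqp2 stood at 0.44 and -1.16 against 3.602 and 3.58 and fell 15.5-fold, Aqp3 fell 14.04-fold, and the keratin genes Krt8 and Krt18 17.8-fold and 14.8-fold. Krt8 stood at -0.27 and -3.24 on the GFP-positive arrays, which is a wide gap, and its call was lost under 8 of the alternative settings that kept all 4 arrays. Intercalated cell markers gave 4 falls among 15, with the proton pump subunit gene Atp6v0d2 64.4-fold lower and the ammonia channel gene Rhcg 9.63-fold lower. The one call among 8 urothelial markers was Upk3a (3.51-fold lower).

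Podocyte markers had 19 measured members, 6 lower and 1 higher, the latter being Wt1. Synpo, an actin-binding protein gene of podocyte foot processes, stood at -2.31 and -2.93 against 1.38 and 1.39 and fell 16.1-fold, Ptpro fell 33.6-fold, and Podxl was at least 69.0-fold lower. Nphs1, the nephrin gene, fell less, 3.02-fold, from 0.98 and 2.06 to -0.03 and -0.11, and Tcf21, which the stroma also uses, fell 3.83-fold.

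Junction and polarity genes of epithelia mirrored the segments, with 15 of 27 lower and none higher (median -3.11). Cldn2 stood at -3.07 and -6.42 against 0.83 and 0.70, the second GFP-positive array not being well above background, and its difference of -5.51 ranged from -7.19 to -3.83 without single arrays. Cldn8 fell 32.3-fold, and Cldn3 and Marveld3 were at least 15.99-fold and 17.5-fold lower. Over all 21 claudin genes tested 10 fell and none rose. Among 18 cadherin genes named Cdh, the epithelial Cdh1 and Cdh16 and the endothelial Cdh5 fell 16.8-fold, 16.8-fold and 134-fold, while Cdh22, Cdh2 and Cdh4 rose 46.8-fold, 8.398-fold and 6.13-fold. Cdh1 stood at -3.82 and -6.09 against -0.80 and -0.97, and Cdh2, as given above, ran the opposite way.

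**Figure D5:**
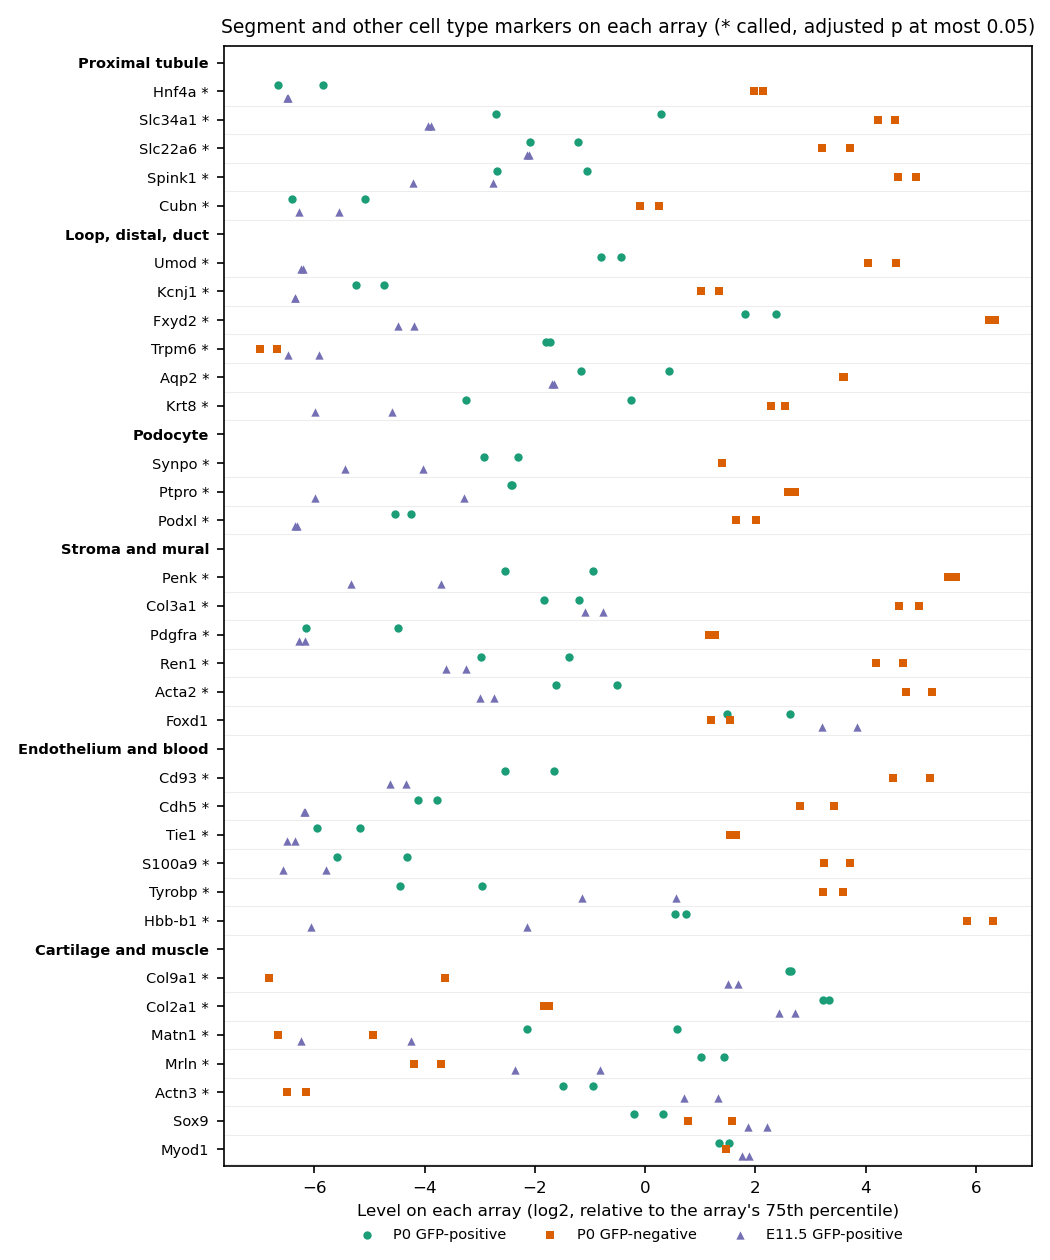
Log2 levels on each array for markers of nephron segments and other cell types, with green circles for newborn GFP-positive cells, orange squares for newborn GFP-negative cells and purple triangles for E11.5 GFP-positive cells, 2 arrays each. Asterisks mark called genes. Segment, stromal, endothelial and blood markers lie to the right in GFP-negative cells, with Foxd1 overlapping, while Trpm6 and the cartilage and muscle genes Col9a1, Col2a1, Matn1, Mrln and Actn3 lie to the right in GFP-positive cells.

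Stromal markers were lower in the GFP-positive cells, with 12 of 25 called lower and 3 called higher. Penk, the proenkephalin gene of medullary stroma, had the largest fall of the ranking rule, from 5.64 and 5.50 to -0.95 and -2.54, or 159-fold (SE 0.89, adjusted p = 0.00417). Col3a1, a fibrillar collagen gene of interstitial cells, stood at -1.83 and -1.21 against 4.61 and 4.96 and fell 79.0-fold. Pdgfra, Alx1, Smoc2 and Lum were at least 45.0-fold, 33.2-fold, 25.1-fold and 7.86-fold lower. The 3 rises were Wnt4 and Aldh1a2, both given above, and the broadly used factor Tcf4 (1.49 log2 units). Foxd1, the defining factor of cortical stromal progenitors, did not follow the list. It stood at 2.63 and 1.49 against 1.20 and 1.55, with overlapping groups (adjusted p = 0.838), and was higher at E11.5, at 3.83 and 3.20.

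Of 17 markers of renin, mural and smooth muscle cells, 11 fell and none rose. Ren1, the renin gene, stood at -1.37 and -2.98 against 4.68 and 4.18 and fell 97.7-fold, its near-identical copy Ren2 fell 84.6-fold, and the probes of the pair may share signal. Acta2, the smooth muscle actin gene, stood at -0.52 and -1.63 against 5.20 and 4.74 and fell 65.9-fold. Rgs5 fell 39.1-fold, and Akr1b7 and Kcnj8 were at least 67.5-fold and 14.5-fold lower.

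Endothelial markers gave 17 falls among 26 and no rise (median -4.42). Cd93 stood at -1.65 and -2.54 against 5.17 and 4.50 and fell 122-fold. Cdh5, the VE-cadherin gene, stood at -4.12 and -3.78 against 3.43 and 2.81, and the receptor genes Tie1, Robo4 and Ptprb were at least 58.7-fold, 42.7-fold and 93.6-fold lower. The transcription factor genes Sox17 and Sox18 were at least 39.3-fold and 31.5-fold lower, and the GTPase genes Gimap4 and Gimap6 fell 95.3-fold and 59.2-fold. Fabp4, a lipid carrier of fat and capillary cells, stood at -1.15 and -1.52 against 5.53 and 5.50 and fell 115-fold. The summed level of the list was 12.3 and 12.2 on the GFP-positive arrays against 134.4 and 116.1 on the GFP-negative arrays.

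Markers of blood cells were lower in the GFP-positive cells as well. Of 22 macrophage and monocyte markers 12 fell and none rose. Tyrobp stood at -2.96 and -4.44 against 3.58 and 3.23 and fell 137-fold, Ctss fell 113-fold, and Cx3cr1 and C1qc were at least 42.4-fold and 20.2-fold lower. Of 16 neutrophil and mast cell markers 9 fell and none rose, and 13 had no probe well above background on the GFP-positive arrays. S100a9, a calprotectin subunit gene, was at least 216-fold lower, the highest bound of any falling gene the rule ranked, and S100a8 and Cpa3 at least 24.1-fold and 8.81-fold. H2-DMb2 and Il2rg, genes of antigen presentation and cytokine reception, were at least 116-fold and 105-fold lower. For Il2rg the bound of -6.72 log2 units is not a firm minimum, since the confidence interval of its difference ran from -13.20 to -3.91. The Il2rg call was lost under 2 of 12 alternative settings that kept all arrays. Without single arrays the Il2rg difference ran from -8.78 to -8.33. None of 6 lymphocyte markers was called. The 16 erythroid and platelet markers gave 6 falls, with Hbb-b1 at 0.53 and 0.74 against 5.84 and 6.30, Hba-a1 52.99-fold lower and Pf4 at least 38.2-fold lower. Globin genes have near-identical copies, so their single values are uncertain. Of 13 markers of neurons and Schwann cells, Erbb3 and Mbp fell 16.6-fold and 4.63-fold and none rose.

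The other leading falls were not markers of a single type. Plau, the urokinase gene, stood at -2.20 and -0.16 against 5.46 and 5.38 and fell 97.0-fold. Nfib, a transcription factor gene with 5 probes of the same sign, stood at -2.32 and -2.83 against 3.40 and 3.23 and fell 59.4-fold. Its probes gave differences from -5.89 to -2.77, and the quoted probe gave the largest. Rprm, a gene linked to cell cycle arrest, fell 75.9-fold and Cstdc5 74.7-fold, and Fbln5 and Gngt2 were at least 80.4-fold and 61.9-fold lower.

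Matrix genes divided between the groups. Of 34 collagen genes 13 fell and 3 rose, the rises being Col9a1, Col2a1 and the transmembrane collagen gene Col13a1, at least 7.16-fold. Col6a3 and the basement membrane gene Col4a3 were at least 24.9-fold and 29.2-fold lower. Of 28 integrin and laminin genes, Itga11 rose 10.8-fold and 7 fell, led by Itga1 (49.0-fold). Of 30 matrix proteoglycan and glycoprotein genes 5 rose and 6 fell. Beside Nell1 and Spock2, the large proteoglycan gene Vcan stood at 6.41 and 6.42 against 3.39 and 3.18 and rose 8.80-fold, and Fbn2 and Gpc1 rose by 1.38 and 0.83, Gpc1 losing its call under quantile normalization. Fn1, the fibronectin gene, fell 8.28-fold and Postn at least 3.29-fold.

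Across the 57 lists, 1085 of 1175 genes were tested, and 84 rose and 242 fell. Over all genes tested 4.21% rose and 4.13% fell. In the main setting the excess of falls thus holds for these lists, chosen with earlier results known, and not for all genes. Over all genes the balance depended on the setting. Quantile normalization gave 593 rises and 1106 falls, and a filter on all 4 arrays gave 955 rises and 563 falls. How far these calls rest on single arrays was checked by leaving out each of the 4 in turn, which leaves 1 array on one side and assumes that it varies as the other groups do. Rises then ranged from 174 to 357 over all genes and falls from 435 to 492. The 16 rises among progenitor transcription factors became 6 to 8, and the 6 among secreted and surface proteins 2 to 4. Six2, Cited1, Pax2, Hoxc10 and Cdh2 kept their call in all 4 fits. Osr1, Eya4, Fgf20, Rspo1, Wnt4, Nell1 and Mrln lost theirs in all 4, though their differences kept their sign. The falls became 9 to 10 for segment transcription factors, 4 to 6 for the loop of Henle, 6 to 10 for the collecting duct, 3 to 4 for podocytes, 7 to 12 for junction genes, 10 to 12 for endothelium, 4 to 6 for renin and mural cells, 3 to 5 for macrophages and 4 to 5 for neutrophils and mast cells. The 12 falls among stromal markers became 9 in each of the 4 fits. Of 38 counts of at least 5 calls over the lists and gene families, 34 became more than 1.5 times smaller in at least 1 of the 4 fits, and those that did not were falls among stromal markers, matrix proteoglycans and glycoproteins, claudins and potassium channels. Of 268 called genes named in this account, 164 lost the call in at least 1 of the 4 fits and 95 in all of them.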

How the data were processed

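Per the labels' protocols, RNA of sorted cells went through Ovation Pico WTA amplification and Cy3 labelling, for 1-colour Agilent arrays. The deposited intensity is a processed signal, background-subtracted within each array and not scaled between arrays, per the file headers. The software was Feature Extraction 11.5.1.1. Labels call these samples P0 although E19.5 stands in the data names, and P0 is used here. For GFP-positive replicate 2 the data had been saved again with fewer digits and with 62 gene names changed, so names came from another array.

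Outlier and control spots were left out, spots of a probe were averaged, and log2 values were reduced by each array's 75th percentile, with no pseudocount. The name in the files was kept for 23942 of 55681 probes and the others were named through RefSeq. A gene was its probe with the highest mean, and 26313 of 34607 genes were kept because both arrays of some group measured a probe well above background. limma 3.58.1 (R 4.3.3, with the data.table package at version 1.17.8) fitted 5 group means to 10 arrays with an intensity trend (5 residual and 2.49 prior degrees of freedom), 2-sided, with Benjamini-Hochberg adjustment at 0.05. Where no probe was well above background in a group, folds are lower bounds against the lowest such signal on each array. In simulated data over 26306 genes, 67, 67 and 66 genes were changed by 1, 2 and 3 log2 units. The fit recovered 11.9%, 29.9% and 62.1% of them, with 2 false calls among 71. Calls in the data made up 8.35% of genes, a far larger share than was changed in the simulation. The adjusted threshold depends on that share, so these recoveries need not hold for the data.

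Members, lists, families and alternatives were chosen with earlier results of these data known. Genes were named by rule: the 15 largest rises and falls above background on all 4 arrays, the 10 highest and lowest bounds, up to 6 called members of a list in each direction and 3 others, and 17 progenitor genes. Others are named where the text says they were chosen after their values were seen, as were Sall4, Cdh22, Cdh16 and the genes of the promoter windows. Some genes are not reported here. Alternatives are in the closing section. The ribosomal symbol pattern also took S6 kinase genes, which were then left out.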

Additional observations from a re-analysis of the deposited data

How the results depend on the processing

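All results below compare GFP-positive with GFP-negative cells at birth. The main setting called 2197 genes, 1109 higher and 1088 lower. Quantile normalization called 1699 genes and moved the rises to 593, a share of 34.9% of calls against 50.5%. Without the intensity trend 1261 genes were called, 383 of them higher (30.4%). A filter on all 4 arrays left 563 falls (62.9% of calls were then rises), and a minimum of 1 log2 unit left 521 rises (33.2%). Leaving out each array in turn gave 609 to 849 calls, with 174 to 357 rises and 435 to 492 falls. Normexp correction, no filter, the floor, the mean of probes, robust moderation, the 4 arrays alone, slide 1 alone and the slide block kept all 3 counts within 1.5 times. The replicate numbers shared by the groups did not pair the arrays (correlation of deviations 0.02), and with the replicate block 1956 genes were called. Signs turned for genes with no call or with probes that disagree. Under quantile normalization Eya1 turned to -0.025. With the mean of probes Msi2 turned to -0.80. Without single arrays Lhx1 ranged from -0.23 to 0.043, Myod1 from -0.13 to 0.054 and Wnt5a from -0.49 to 0.18. With 2 arrays a side and signals well above background on 62.3% to 69.0% of spots, changes of few fold may often have been missed.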

Other observations

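Enzymes that build and sulfate glycosaminoglycan chains, which bind FGF, Wnt and BMP ligands at the cell surface, were gathered after their values were seen, so their counts support nothing beyond description. Of 41 measured genes 9 rose and 4 fell, or 22% and 9.76% beside 4.21% and 4.13% of all genes. Sulf1, which trims sulfate from heparan chains outside the cell, stood at 3.42 and 4.16 against 0.55 and -0.65 and rose 14.3-fold, and its relative Sulf2 rose 3.18-fold. The sulfotransferase genes Hs6st2 and Ust rose 10.02-fold and 10.9-fold, the hyaluronan synthase gene Has2 18.7-fold from -4.79 and -4.08 to 0.49 and -0.91, and the chain synthesis genes Chsy1 and Ext1 2.83-fold and 3.21-fold. Hs3st6 rose 2.53-fold, and Chst5 was at least 3.90-fold higher. Hs3st3a1 was at least 14.6-fold lower, and Chst8, Chst15 and Chst3 fell 6.13-fold, 4.60-fold and 4.25-fold.

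Proteins of the synaptic vesicle cycle, gathered in the same way, had 44 measured members, 5 higher and 4 lower. These are 11.4% and 9.09%, beside 4.21% and 4.13% of all genes. Beside Amph, the clathrin assembly gene Snap91 rose 28.3-fold, the active zone gene Pclo 8.74-fold, and the calcium sensor genes Doc2b and Syt4 were at least 5.88-fold and 3.46-fold higher. Syn2 and Syt13 were at least 56.7-fold and 11.9-fold lower, and Syt17 and Vamp8 fell 7.91-fold and 2.09-fold. None of 13 markers of neurons and Schwann cells was called higher. Gene families were counted by symbol. Of 355 zinc finger genes with Zfp symbols 16 rose and 1 fell (median 0.42), led by Zfp365 (9.88-fold), and the median stood beside 0.10 for all genes. The 16 rises are 4.51% of the family, close to the 4.21% of all genes, and became 1 to 3 when single arrays were left out. Of 316 solute carrier genes 42 fell and 4 rose (median -0.46), or 13.3% lower beside 4.13% of all genes, and without single arrays 16 to 22 fell. The rises included the chloride exchanger gene Slc26a7 (7.47-fold) and the glutamate transporter gene Slc1a3 (7.12-fold). The iron exporter gene Slc40a1 fell 113-fold on a probe above background on 1 of 2 GFP-positive arrays, and its difference ran from -8.64 to -5.00 without single arrays.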
